A study of Mus musculus with 21 samples.

Results

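The FGF-ERK feedback genes examined here were Fgf4, Fgfr1, Spry1, Spry2, Spry4, Spred1, Spred2, Dusp6, Etv4 and Etv5. Their H3K4me1 regions were the regions of the deposited table whose nearest gene was 1 of these 10 and whose distance to its start site was at most 50 kb. This gave 129 of the 186824 regions with levels, and 10 of the 21535 genes that had at least 1 region in such a window. Fgf4 had 2 regions, Etv4 had 10, Spry1 had 13, Fgfr1, Spry2, Spred1, Spred2 and Etv5 had 14 each, and Spry4 and Dusp6 had 17 each. By the table's own annotation 98 were intergenic and 22 intronic, and 4 lay within 1 kb of a start site by listed distance. That distance runs to the middle of a region, so a wide region can cover a start site and be listed farther off.

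The assay was CUT&RUN for H3K4me1, a histone mark of enhancers and promoter flanks. An antibody guides a protein A-MNase fusion that cuts out the chromatin around its target, here in stem cells of the mouse embryo. Cells were compared in the naive state, kept by LIF and 2i, and in the formative state, 63 h after both were withdrawn. The genotypes were wild type (WT, line R1), MLL3KO_MLL4fl (no MLL3, floxed MLL4, here the floxed line), MLL3KO_MLL4KO (DKO, neither enzyme) and MLL3CD_MLL4CD (dCD, line R1, with CD alleles of both enzymes, which stand for catalytically dead). The floxed line, which served here as the control of DKO, therefore lacks MLL3 as DKO does, and neither carries a line label. How many clones stand behind each line is not given in the sources used here. The 8 groups had 2 libraries each, cultured and prepared independently. The table pools them into 1 level per group, so that no spread between replicates can be given, and every difference between lines below is a size without a test.

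Fibroblast growth factors bind receptor tyrosine kinases, which act through RAS and MEK on the kinase ERK. ERK activity induces its own brakes, among them the Sprouty and Spred proteins and the ERK phosphatase DUSP6, and it induces the ETS factors ETV4 and ETV5. Embryonic stem cells make FGF4 themselves, and this signal readies them to leave the naive state. The medium 2i contains a MEK inhibitor, so that leaving the naive state also releases the pathway. MLL3 and MLL4 are the methyltransferases that place much of the H3K4me1 at enhancers.

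Of the member regions, 6 passed the authors' FDR of 0.05 as higher in formative WT, were also at least 2-fold higher in both WT and the floxed line, and were under 2-fold in both mutants. They were chosen by these values, which are therefore a description, and they lay 12.8 to 39.3 kb upstream of the start sites of Etv5, Spred2, Spry2, Spred1 and Spry4. For 4 of them, 200 bases of the plus strand of GRCm38 (the mm10 build) are shown from the stretch with the most matches to 4 short motifs, searched on both strands and written in capitals where found. The motifs were GGATTA (OTX), ACAATG (SOX), ATGCNAAT (octamer) and CCGGAAG (ETS).
Etv5 region, chr16:22463990-22464189: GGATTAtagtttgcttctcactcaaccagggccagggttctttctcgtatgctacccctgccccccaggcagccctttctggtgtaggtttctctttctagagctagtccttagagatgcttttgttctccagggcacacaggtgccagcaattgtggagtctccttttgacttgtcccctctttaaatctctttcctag
Spred2 region, chr11:19884947-19885146: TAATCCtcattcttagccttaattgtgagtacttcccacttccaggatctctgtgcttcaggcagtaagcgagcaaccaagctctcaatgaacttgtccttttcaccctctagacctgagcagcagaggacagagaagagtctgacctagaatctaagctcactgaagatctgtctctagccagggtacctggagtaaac
Spry2 region, chr14:105922293-105922492: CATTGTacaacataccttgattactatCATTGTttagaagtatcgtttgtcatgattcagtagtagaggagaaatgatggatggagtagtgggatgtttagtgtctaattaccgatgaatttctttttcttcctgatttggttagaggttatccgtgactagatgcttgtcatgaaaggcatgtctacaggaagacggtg
Spred1 region, chr2:117093140-117093339: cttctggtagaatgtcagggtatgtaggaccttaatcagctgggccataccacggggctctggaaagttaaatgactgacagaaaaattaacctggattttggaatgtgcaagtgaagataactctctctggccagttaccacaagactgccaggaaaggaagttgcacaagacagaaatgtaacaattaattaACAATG

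The Etv5 and Spred2 stretches hold the OTX letters and the Spry2 and Spred1 stretches the SOX letters. The other Spred1 region chosen, 12.8 kb upstream, had 0 matches to the 4 motifs and is not shown. Such short words are common: of all regions within 10% of the length of the Etv5 region, 35.3% hold GGATTA, and of those as long as the Spry2 region, 74.1% hold ACAATG. None of the 4 regions holds CCGGAAG, which 5.26% to 12.5% of regions of like length hold. Over all 129 member regions, 86 held the OTX letters, 93 the SOX letters, 36 the octamer and 31 the ETS letters. These counts depend on length and were not set against an expected number. The like-length share with ETS letters ran from 2.99% for a short Spred1 region to 83.8% for the wide Fgf4 region. A match is a description of the bases, not a site of binding. In the RefSeq promoter table (GRCm38.p6, 250 bases before to 50 after a start), entries were matched for Dusp6, Etv5, Fgf4, Spred1, Spred2, Spry1 and Spry2 and not for Etv4, Fgfr1 and Spry4, and none held any of the 4 motifs, against 8.86% of all promoters with ETS letters, 7.06% with OTX, 3.15% with octamer and 12.6% with SOX letters.

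At Fgf4, a second search looked in the regions of the members other than Spry4 for CTTTGT or CATTGT followed within 6 bases by ATGCNAAT, a SOX word beside an octamer, since the Fgf4 enhancer active in stem cells is known to be bound by SOX2 and OCT4. It found 1 match, in the untranslated part of an Fgf4 exon at chr7:144864394-144864411 on the plus strand, 3.0 kb from the gene's start in GENCODE M21. The match is shown in capitals with its flanks.
Fgf4 SOX and octamer letters: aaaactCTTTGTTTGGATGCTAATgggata

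This match lies inside the widest member region, chr7:144845774-144877835, which covers Fgf4 whole, and its reads are given with the Fgf4 results below.

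In the WT transition 19 member regions rose and 3 fell at the authors' FDR of 0.05. By gene, Dusp6 held 5 of the 19, Spry4 4, Spred1 3, and Spry1, Spry2 and Spred2 1 each. These 6 genes, which act as brakes, thus held 15 of the 19 gains and 69% of the member regions, so that 16.9% of their 89 regions rose. Etv4 and Etv5 held 2 each, and Fgf4 and Fgfr1 none. The 19 are 14.7% of the member regions, where 9.82% of all regions rose, and the 3 are 2.33%, where 10.5% of all regions fell. By size alone, 15 were up by 2-fold or more and 2 were down by as much, beside 11.1% and 11.4% of all regions. The median difference over the 129 regions was 0.26 on the log2 scale, and over all regions −0.03. Of the 10 loci, taken as the mean log2 difference of their regions, Spred1 at 0.81 and Spry4 at 0.73 were at least 1.5-fold higher, as were 12.8% of all loci.

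**Figure D1:**
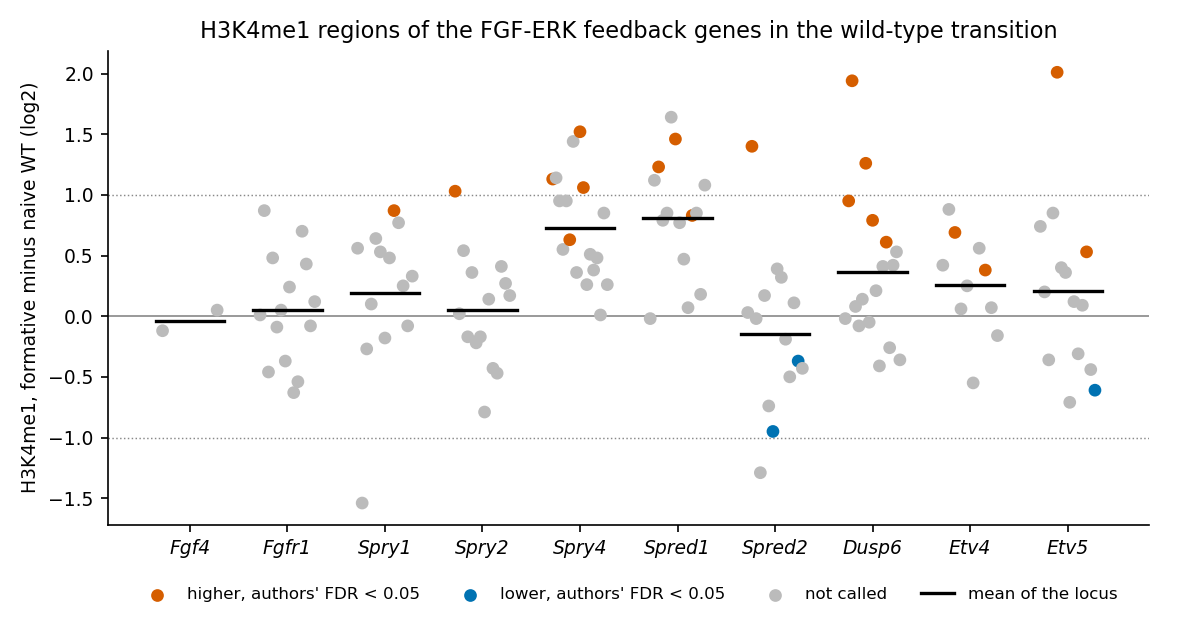
H3K4me1 difference between formative and naive WT (log2) of the 129 regions, each a point, grouped by gene and ordered within a gene by position, with the mean of the locus as a bar and dotted lines at 2-fold. All 17 Spry4 regions lie above 0, while Spry2 and Fgfr1 regions lie on both sides of it.

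Dusp6, the phosphatase that switches ERK off, carried its 5 gains on both sides of the gene. At 31.5 kb upstream, normalized reads were 5.52 in naive WT and 22 in formative WT, a log2 difference of 1.94 with an FDR of 0.0302 in the authors' deposited table. The same region held 6.80 and 10.7 reads in the floxed line, 8.04 and 10.8 in DKO, and 8.22 and 7.92 in dCD. Formative WT was thus the highest of the 8 groups there, and the depth of this region was low in each. A deeper region 5.6 kb upstream went from 27.1 to 66.5 reads in WT, from 34.7 to 54.1 in the floxed line, from 28.8 to 35.4 in DKO and from 17.2 to 32.6 in dCD. All 4 genotypes were higher in the formative state at that region, and DKO least. The region over the Dusp6 start itself did not move with state, with 202 reads in naive and 194 in formative WT.

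Spry4, a Sprouty protein that restrains RAS-ERK signalling, had every one of its 17 regions above 0 in the WT transition, from 0.01 to 1.52. For this and the counts of regions above 0 that follow, the share of all regions above 0 was not counted. At 47.8 kb upstream reads rose from 48.2 to 107 in WT (log2 difference 1.13, FDR 0.00284 in the authors' deposited table). The floxed line did not share this, with 52.9 reads in the naive and 51.4 in the formative state. Over the whole locus the floxed line had a mean of 0.13, DKO 0.44 and dCD 0.46. WT and the floxed line, both of which keep MLL4, differed more at Spry4 than DKO and dCD did. The order of the genotypes depended on how the locus was summed. With log2 ratios of summed reads, which weight the wide regions most, Spry4 was at 0.52 in WT, 0.00 in the floxed line, 0.73 in DKO and 0.63 in dCD, so that the mutants and not WT passed 1.5-fold. Within 20 kb of the start the floxed line was at 0.47, against 0.68 in WT, 0.50 in DKO and 0.51 in dCD.

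Spred1, which with Spred2 recruits the RAS inhibitor neurofibromin to the membrane, had 13 of 14 regions above 0 in WT and 12 of 14 in the floxed line. Its locus means were 0.81 in WT, 0.78 in the floxed line, 0.22 in DKO and 0.42 in dCD. The shown region 28.1 kb upstream held 24.9 reads in naive and 58.9 in formative WT, and 26.5 and 63.7 in the floxed line. In DKO it held 15.2 and 12.1 reads, and in dCD 23.7 and 14.7. Both controls were higher in the formative state and both mutants lower. This region was chosen for a 2-fold rise in both controls and less in both mutants, so that contrast is a description.

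Spred2 had the mixed pattern. Its shown region 39.3 kb upstream rose from 22.1 to 60.2 reads in WT (FDR 0.00343 in the authors' deposited table) and went from 21.4 to 64.2 in the floxed line, from 32.3 to 27.2 in DKO and from 35.4 to 34.7 in dCD. A region 13.0 kb upstream fell from 79.1 to 40.3 reads in WT (FDR 0.0350 in the authors' deposited table), and the wide intronic region 28.9 kb into the gene fell from 1033 to 757. The locus mean in WT was −0.15, the lowest of the 10.

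Of the other Sprouty genes, Spry2 had 1 gain, the shown region 26.2 kb upstream. It held 52.9 and 109 reads in naive and formative WT and 51.1 and 136 in the floxed line, against 26.8 and 32.7 in DKO and 19.9 and 26.4 in dCD. Both mutants were below both controls there already in the naive state, and median reads over all regions had that order too. Spry1 had 1 gain 17.4 kb downstream of its start, from 77.8 to 144 reads in WT. The largest negative WT difference among the members was also at Spry1, −1.54 in a region 7.8 kb upstream with 22.3 and 7.56 reads, which missed the threshold at an FDR of 0.0847 in the authors' deposited table.

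Etv5, an ETS factor induced by ERK, held the largest gain. The shown region 24.5 kb upstream held 10.1 reads in naive and 41.6 in formative WT, a log2 difference of 2.01 with an FDR of 0.00144 in the authors' deposited table. The floxed line held 10.7 and 39.1 reads, DKO 10.3 and 10.2, and dCD 17.6 and 15.0. Naive levels were alike in WT, the floxed line and DKO. The 2 formative controls stood above all other groups, which follows in part from how this region was chosen. Within the Etv5 gene, the wide region at its far end fell from 735 to 444 reads in WT, with 588 and 347 in the floxed line, 328 and 316 in DKO, and 587 and 279 in dCD. Etv4, the closest relative of Etv5 in this set, had 8 of its 10 regions above 0 in WT, and its locus mean varied little between genotypes, at 0.26 in WT, 0.25 in the floxed line, 0.36 in DKO and 0.35 in dCD. Within 20 kb these means were 0.14, 0.04, 0.32 and 0.40, so that both mutants were above both controls.

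At the ligand and receptor genes no region passed the authors' FDR. The wide Fgf4 region held 1223 and 1106 reads in naive and formative WT, 1345 and 1086 in the floxed line, 726 and 695 in DKO, and 879 and 771 in dCD. Controls stood above mutants in both states without overlap, and each genotype had slightly fewer reads in the formative state. Fgfr1, the main FGF receptor of these cells, had 8 of 14 regions above and 6 below 0 in WT, with a locus mean of 0.05.

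In the other genotypes the transition of the member regions was counted by size. The floxed line had 16 regions at least 2-fold higher and 2 lower, which is 12.4% and 1.55% of the members, beside 9.33% and 10.6% of all regions. DKO had 1 higher and 2 lower, beside 1.2% and 1.25% of all regions. In dCD 3 were higher and 3 lower, beside 1.37% and 2.47% of all regions. The member shares of gains in DKO and dCD, 0.775% and 2.33%, thus rest on 1 and 3 regions. The 1 in DKO lay 39.8 kb downstream of the Spry4 start, with 7.18 and 15.5 reads.

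Yet the small differences still leaned upward. The median over the 129 regions was 0.22 in the floxed line, 0.20 in DKO and 0.18 in dCD, where the medians of all regions were −0.08, −0.01 and −0.04. In DKO 87 of 129 regions were above 0, and in dCD 82, and the share of all regions above 0 was not counted. The regions cluster by gene. In DKO 15 of 17 were above 0 at Spry4 and 9 of 10 at Etv4, but 7 of 14 at Fgfr1 and 0 of 2 at Fgf4. By locus mean, 7 loci were above 0 and 3 below in DKO, and the same numbers in dCD. Read over the 19 gains of WT, which WT itself chose, the median difference was 0.63 in the floxed line with 6 of 19 at least 2-fold, 0.37 in DKO with 0, and 0.30 in dCD with 0. Over all 18339 gains of WT the same medians were 1.02, 0.15 and 0.26. At the 1.5-fold level, Spred1 at 0.78 was the only locus higher in the floxed line (9.9% of all loci), and none was higher in DKO (1.57% of all loci) or dCD (2.6% of all loci). None was lower in WT, the floxed line or DKO, beside 15.1%, 15.5% and 1.03% of all loci, and Fgf4 was lower in dCD at −0.59, a mean over 2 regions, beside 1.93%. In the floxed line Spred1 was at 0.43 with at least 32 reads and at 0.57 with summed reads, both under 1.5-fold. Dusp6, at 0.53 there, passed 1.5-fold by quantile scaling at 0.61 and by the median of its regions at 0.62.

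**Figure D2:**
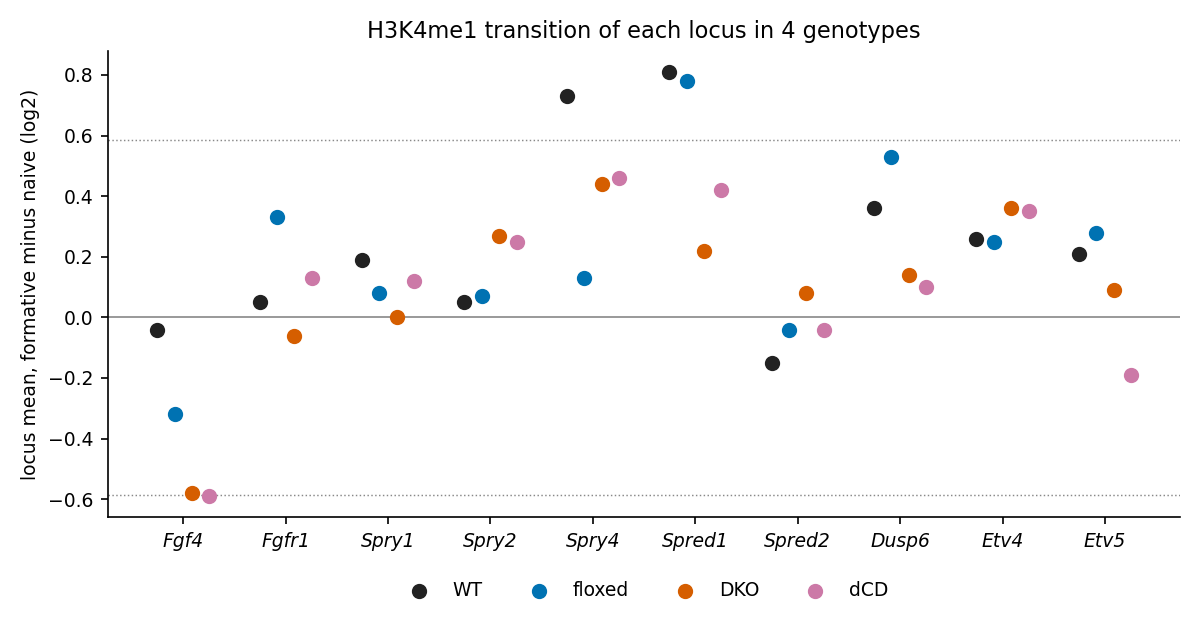
Locus mean of the H3K4me1 difference, formative minus naive (log2), for each gene in the 4 genotypes, with dotted lines at 1.5-fold and no error bars because libraries were pooled. By these means Spred1 passes 1.5-fold in WT and the floxed line and Spry4 in WT only, and Etv4 lies between 0.25 and 0.36 in all 4. By summed reads Spry4 passes it in DKO and dCD instead.

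Between mutants and their controls, the comparisons share groups with the transitions above and with each other, so they are set side by side and not counted as separate support. Over all regions the median difference was −0.18 in naive and −0.13 in formative DKO against the floxed line, and −0.29 in both states of dCD against WT, and the member values are read against these shifts. In naive DKO 23 of the members' regions were lower by 2-fold or more and 5 higher, which is 17.8% lower, beside 15.9% of all regions lower and 4.36% higher. In formative DKO 27 were lower and 2 higher, which is 20.9% lower, beside 16.7% and 6.47%. In naive dCD 26 were lower and 0 higher, which is 20.2% lower, beside 13.9% and 1.55%. In formative dCD 33 were lower and 2 higher, which is 25.6% lower, beside 20.1% and 2.59%. The member shares of lower regions were above those of all regions in each of the 4 comparisons. After each group was centred on its median level, the lower shares were 9.30%, 14.7%, 8.53% and 12.4%, beside 10.6%, 11.8%, 5.63% and 9.69% of all regions, so that the naive DKO share then lay below that of all regions.

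Fgf4, Spry2 and Spry4 were at least 1.5-fold lower as loci in both mutants and both states. In naive DKO these 3 were the only ones, with Spry4 at −0.98, Spry2 at −0.93 and Fgf4 at −0.77, where 16.3% of all loci were that low. In formative DKO Fgf4 stood at −1.02, Spry2 at −0.74, Spry4 at −0.67 and Fgfr1 at −0.59, beside 14.2% of all loci. In naive dCD the values were −1.09 for Spry2, −0.91 for Fgfr1, −0.81 for Fgf4 and −0.78 for Spry4, beside 15.2%. In formative dCD 6 loci were that low, beside 17%: Fgf4 at −1.36, Spry4 at −1.05, Spry2 at −0.89, Fgfr1 at −0.83, Etv5 at −0.70 and Spred1 at −0.65. Spry1 was the opposite case, with locus means of 0.12 and 0.05 in naive and formative DKO and 0.03 and −0.04 in dCD. After centring, the loci still 1.5-fold lower were Spry4 and Spry2 in naive DKO, Fgf4 in formative DKO, Spry2 in naive dCD, and Fgf4 and Spry4 in formative dCD. No locus then kept 1.5-fold in both mutants and both states. No member locus was 1.5-fold higher in naive or formative DKO, beside 7.58% and 13.6% of all loci, or in naive or formative dCD, beside 4.68% and 7.97%.

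At Spry4, all 17 of its regions were lower in naive DKO than in the naive floxed line, and all 17 were lower in dCD than in WT in both states. The shares of all regions that were lower were not counted. The medians of all regions were −0.18 in naive DKO and −0.29 in both states of dCD. The region 6.7 kb upstream held 26.4 reads in the naive floxed line and 6.11 in naive DKO, and 27.2 in naive WT and 7.10 in naive dCD. In formative DKO 14 of the 17 were lower and 3 higher. The 3 were the wide region over the gene, with 818 reads in the floxed line and 1177 in DKO, and a pair of shallower regions with 13.7 and 15.5 reads and with 37.7 and 44.2 reads. The log2 ratio of summed reads over the locus was −0.14 there.

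At Spry2, 12 of 14 regions were lower in each mutant in the naive state, and here too the shares of all regions that were lower were not counted. The region 32.7 kb downstream held 165 reads in naive WT and 171 in the naive floxed line, against 33.7 in DKO and 42.8 in dCD, and the controls and mutants were far apart. All regions of chromosome 14, which holds Spry2, had a median of −0.48 in naive and −0.39 in formative DKO against the floxed line, and −0.29 and −0.32 in dCD. Relative to its chromosome the Spry2 locus was at −0.46 and −0.35 in DKO and at −0.80 and −0.57 in dCD. Its lowering in DKO is therefore shared in part by the whole chromosome in these libraries, and the part of that shift in the Spry2 value was not tested.

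Fgfr1 raises the same point on chromosome 8, whose median was −0.57 and −0.45 in naive and formative dCD against WT, and −0.45 and −0.35 in the floxed line against WT. In DKO against WT it was −0.51 and −0.35, so that every other line was low against WT on this chromosome. Relative to the chromosome median in dCD, the Fgfr1 locus was at −0.34 and −0.38. In formative DKO against the floxed line, where the chromosome median was 0.02, the Fgfr1 locus was at −0.59. The upstream region at 8.8 kb held 57.2 reads in the formative floxed line and 17.9 in DKO.

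The Fgf4 locus rests on 2 regions of unequal depth. The wide one was lower by 0.74 in naive and 0.52 in formative DKO, in log2 units, and by 0.40 and 0.42 in dCD. The second, chr7:144877973-144878746, an intergenic region 17.0 kb downstream of the start, held 19.3 and 20.0 reads in naive and formative WT, 18 and 13.8 in the floxed line, 10.3 and 4.74 in DKO, and 8.20 and 3.95 in dCD. With so few reads the formative differences of −1.52 in DKO and −2.30 in dCD have wide counting error. Without this region the Fgf4 locus would be at −0.52 in formative DKO and −0.42 in formative dCD, under 1.5-fold by levels. Levels show smaller differences in wide regions. The formative reads of the wide region were 1086 in the floxed line and 695 in DKO, and 1106 in WT and 771 in dCD. By reads, the DKO difference is over 1.5-fold and the dCD difference under it.

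**Figure D3:**
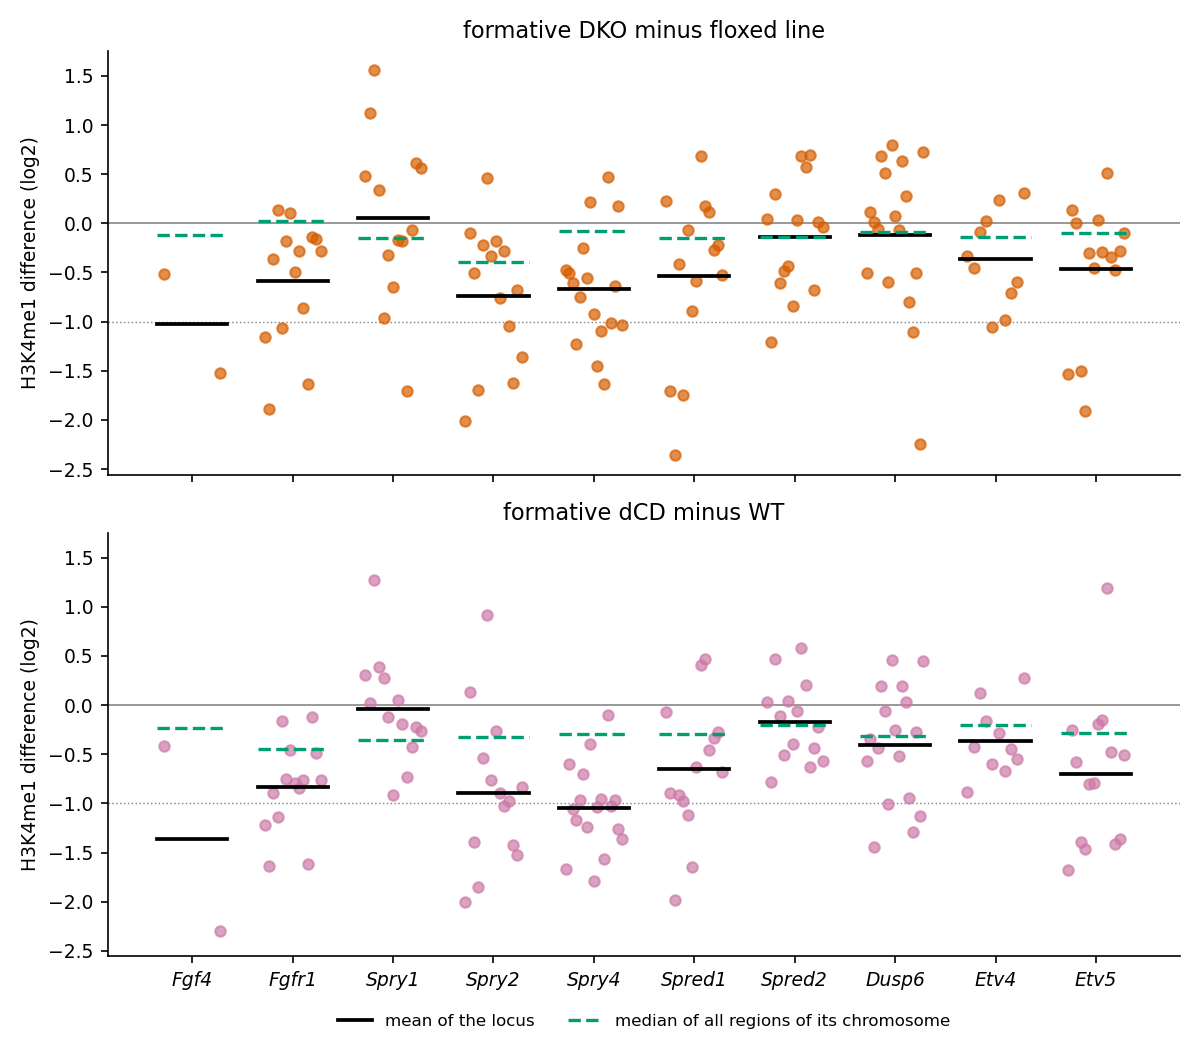
Formative H3K4me1 difference (log2) of each member region, DKO minus the floxed line above and dCD minus WT below, with the mean of the locus and the median of all regions of its chromosome; the dotted line marks 2-fold lower. All loci other than Spry1 and Spred2 lie below their chromosome medians in both panels, Fgf4 the farthest, and Dusp6 only by −0.03 and −0.10. Spry1 lies above in both.

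The regions listed within 1 kb of a start site went the other way by their median. These 4 belong to Fgf4, Spred2, Dusp6 and Etv5. Their median was 0.60 in formative DKO against the floxed line and 0.52 in formative dCD against WT, while the 125 others had medians of −0.33 and −0.60. Over all regions the same medians were 0.40 and 0.47 within 1 kb and −0.17 and −0.33 beyond. At the Dusp6 start, reads were 174 in the formative floxed line and 314 in DKO, and 194 in WT and 271 in dCD. Fgf4 was the exception among the 4, lower in both mutants. Wide regions of Etv4, Fgfr1 and Spry4, and another of Etv5, also cover a GENCODE M21 start but are listed beyond 1 kb. Their formative differences were −0.71, −0.14, 0.47 and −0.29 in DKO, and −0.45, −0.12, −0.10 and −0.15 in dCD. The upward values thus do not hold for every region that covers a start. Exonic regions of Spry1 and Spry2 stood out upward. The Spry1 region 2.9 kb from the start held 87.8 and 72.5 reads in naive and formative WT, 111 and 57.2 in the floxed line, 168 and 171 in DKO, and 144 and 177 in dCD. Both mutants exceeded both controls there in both states, and the share of all regions with this order was not counted. The Spry2 region 3.3 kb from the start held 54.1 reads in formative WT and 58.6 in the floxed line, against 81.1 in DKO and 103 in dCD.

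CpG density varied along with this. The Spry1 region has 2.60 CpG per 100 bp, the Spry2 region 2.99 and the region over the Dusp6 start 3.56, where the median member region has 1.28. Across the 129 regions, Pearson's r of CpG density with the formative difference was 0.50 for DKO and 0.54 for dCD, and over all regions 0.46 and 0.49. These points share libraries and neighbouring positions, so r is a description. Of the 14 member regions with at least 2 CpG per 100 bp, 10 were above 0 in formative DKO and 9 in formative dCD. The share among all regions that rich in CpG was not counted. GC content did not set the members apart, with a median of 45.8% in the member regions and 46.2% in all regions.

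**Figure D4:**
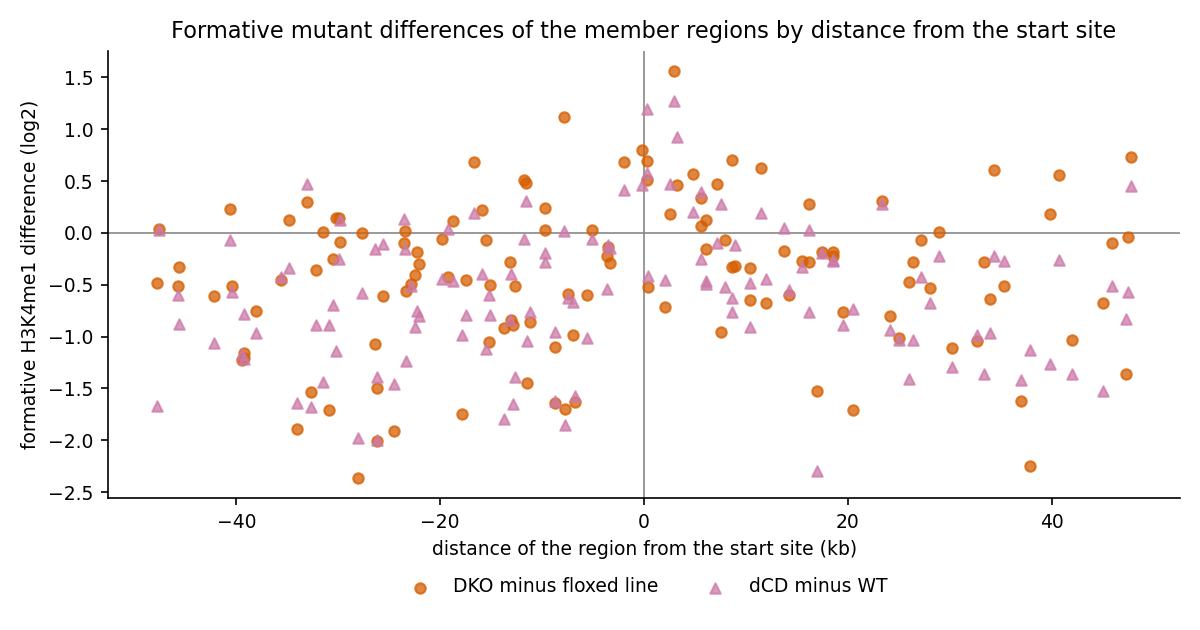
Formative H3K4me1 difference (log2) of the 129 member regions against their distance from the start site (kb, negative upstream), for DKO minus the floxed line and dCD minus WT. The 5 points at or below −2.00 lie 17.0 to 37.9 kb from the start site, and the regions listed within 1 kb are above 0 apart from that of Fgf4. Distances run to the middle of a region.

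Single distal regions had the largest losses. In formative DKO these were the shown Spred1 region (−2.36, 63.7 reads in the floxed line and 12.1 in DKO), a Dusp6 region 37.9 kb downstream (−2.25, 35.5 and 7.17 reads) and the shown Spry2 region (−2.01, 136 and 32.7 reads). The shown Spry2 and Spred1 regions were also among the 3 lowest in formative dCD, at −2.00 and −1.98. Shown regions were chosen for a rise in both controls and less in both mutants. Their low formative values in the mutants follow in part from that choice. Dusp6 had gains as well: in naive DKO the regions 16.7 and 11.7 kb upstream were at 1.73 and 1.26, with 8.83 and 30.9 reads in the floxed line and 30.0 and 76.0 in DKO. Since naive WT held 21.5 reads at the first of these, the floxed line was the low group there.

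Against WT, the floxed line differed little at the members. In the naive state 8 regions were lower by 2-fold or more and 1 higher, beside 4.38% and 0.864% of all regions, and in the formative state 4 were lower and 0 higher, beside 3.83% and 0.526%. No member locus reached 1.5-fold in either state. The Fgfr1 locus came nearest at −0.53 in the naive state, beside the chromosome 8 median given above.

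RNA folds of the same genes stand in the authors' deposited table for WT and DKO only, from samples outside this series, with no error that could be given here. Of the 10 members, 4 were at least 2-fold higher in formative than in naive WT in the authors' deposited table, beside 19.1% of the 10876 genes with folds. They were Dusp6, Spry4, Spry1 and Spred1. In DKO 7 of 10 were at least 2-fold higher in the authors' deposited table, beside 20% of genes. The median fold of the members in the authors' deposited table was 0.76 in WT and 1.84 in DKO on the log2 scale, against 0.16 and 0.21 over all genes.

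All 10 members had log2 folds below 0 in naive DKO over WT in the authors' deposited table, with a median of −0.96, against 0.04 over all genes. The share of all genes below 0 was not counted. Of the members 5 were at least 2-fold lower in the authors' deposited table, beside 11.7% of genes. These were Spry4 at −2.24, Spry2 at −1.53, Dusp6 at −1.40, Etv4 at −1.25 and Etv5 at −1.24, as the authors' deposited table has them. In formative DKO over WT none was 2-fold lower in the authors' deposited table (5.65% of genes were), 5 were above 0 and 5 below, and Spry4 was at 1.43, Spred2 at 0.72, Fgfr1 at 0.31 and Etv5 at −0.86. The 2 comparisons of DKO with WT and the 2 transitions share the same 4 groups and are not separate evidence. Both comparisons set DKO against WT, which keeps MLL3, and not against the floxed line. Line, MLL3 and MLL4 therefore cannot be told apart in them. In the authors' deposited table Spry4 had a transition of 1.62 in WT and 5.29 in DKO, and Dusp6 3.81 and 5.06.

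The RNA and H3K4me1 differences were unlike in size or sign at some members. At Spry4 the H3K4me1 locus was lower in DKO against WT in both states, at −0.68 naive and −0.97 formative, while the RNA fold in the authors' deposited table was −2.24 naive and 1.43 formative. Spry2 had H3K4me1 locus means of −1.12 and −0.90, and RNA folds of −1.53 and −0.03 in the authors' deposited table. At Dusp6 the H3K4me1 locus means were −0.04 and −0.26, beside RNA folds of −1.40 and −0.15 in the authors' deposited table. Fgf4 RNA went down with state in both genotypes in the authors' deposited table, at −0.98 in WT and −1.15 in DKO, and Etv5 RNA hardly moved with state, at −0.35 and 0.03.

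**Figure D5:**
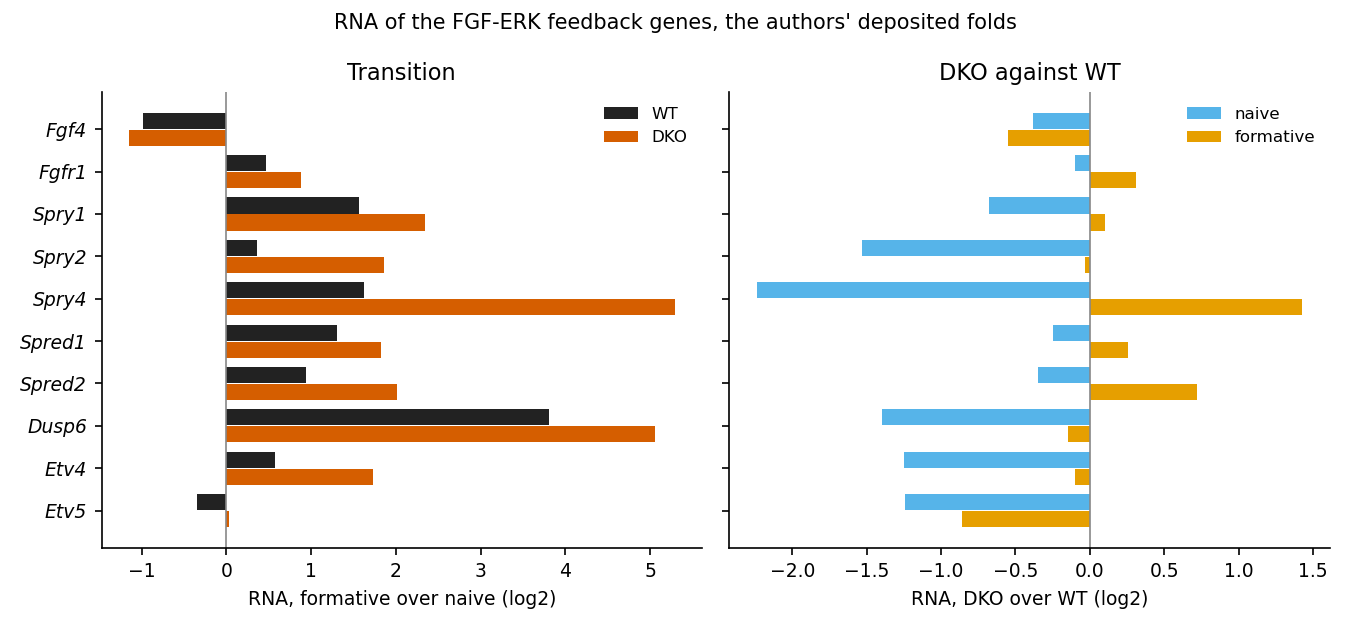
The authors' deposited log2 RNA folds of the 10 genes, formative over naive in WT and DKO (left) and DKO over WT in the naive and formative states (right), as bars from 0 without errors. All naive bars of DKO over WT are below 0, and the formative ones lie on both sides.

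The authors' deposited table also gives H3K27ac folds for each region, a mark of active enhancers, again from samples outside this series. Here too DKO is set against WT and not against the floxed line. The median over the member regions in the authors' deposited table was −0.42 in naive DKO over WT and 0.25 in formative DKO over WT, against 0.04 and −0.20 over all regions. For the transition it was 0.08 in WT and 0.61 in DKO in the authors' deposited table, against 0.33 and 0.05. Spry4 had the lowest naive median of the 10 genes in the authors' deposited table, −1.12 over its 17 regions, and −0.03 in the formative state. Spry2 had −0.51 naive and 1.06 formative, and Dusp6 −0.29 and 0.99, in the authors' deposited table. Single regions ranged from −6.83 to 0.57 at Spry4 in naive DKO over WT in the authors' deposited table, so that medians say more than single folds.

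Of 56 other genes of the pathway, 52 had regions within 50 kb. In the WT transition 6 of the 52 were at least 1.5-fold higher and 3 lower as loci, which is 11.5% and 5.77%, beside 12.8% and 15.1% of all loci. Highest were Fgf5, a ligand and formative marker, at 1.59, the ETS factor Ets1 at 1.01, and the receptor Fgfr3 and the kinase Braf at 0.96 each. The lowest were Map2k2, a MEK gene, at −0.89 and Rps6ka3, a kinase downstream of ERK, at −0.78 over its 1 region. In the transition none of the 52 reached 1.5-fold in DKO, and 1 was that much higher in dCD (2.6% of all loci). In naive DKO 2 were higher (Fgf5 at 0.78 and Fosl1, an AP-1 factor, at 0.59) and 7 lower, led by Il17rd, another inhibitor of FGF signalling, at −1.25, Rps6ka3 at −1.23 and Ier3, an immediate early gene, at −1.01. In formative DKO 1 was higher (Hras at 0.67) and 8 lower, led by Ier3 at −1.06, the ligand Fgf15 at −0.96 and Il17rd at −0.87. In dCD none was higher in either state, with 6 lower in the naive state, led by Rps6ka3 at −1.49 and by Map2k2 and Myc at −0.86 each, and 8 in the formative state, led by the ERK-pathway phosphatase Dusp4 at −0.85, Etv1 at −0.79 and Myc at −0.76. The shares of lower pathway loci were 13.5% and 15.4% in naive and formative DKO, beside 16.3% and 14.2% of all loci, and 11.5% and 15.4% in dCD, beside 15.2% and 17%. They were near or below the shares of all loci. Il17rd lies on chromosome 14 like Spry2, and Dusp4 on chromosome 8 like Fgfr1.

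The members' mean profile over the 8 groups, centred on its mean, was 0.18 and 0.43 in naive and formative WT, 0.08 and 0.29 in the floxed line, −0.27 and −0.17 in DKO, and −0.32 and −0.22 in dCD. Of the 10999 other genes with at least 5 regions, Tpd52l1 (Pearson's r 0.993 over the 8 groups), Foxk1 (0.991), Slc25a18 (0.991), Cecr2 (0.990) and Atp6ap1l (0.989) had profiles most like it. With 8 points high values are common: 799 genes had r above 0.9.

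Depth was modest. Median normalized reads per member region ranged from 27.7 in naive dCD to 57.9 in formative WT, and over all regions from 29.6 to 39.2, with both mutants below both controls. At least 32 reads on average over the groups were found in 76 of the 129 member regions. The states went with their labels by their marker loci in WT, where 7 of 12 naive marker loci were at least 1.5-fold lower and 6 of 10 formative marker loci higher. The naive loci ranged from −1.33 to 0.42 in WT. In the DKO transition 0 naive marker loci were that much lower and 0 formative ones higher, and in dCD 3 and 2. By H3K4me1 these loci thus show the state labels less in dCD and not at this level in DKO. Their RNA moved with state in DKO as well. In the authors' deposited table, formative over naive DKO folds of the naive markers ran from −2.79 at Fbxo15 to 0.87 at Nr0b1, with only Nr0b1 above 0. Those of the formative markers with folds ran from 2.44 at Car14 to 5.75 at Fgf5 in the authors' deposited table. No RNA folds were given for dCD. Of 9 fibroblast marker loci 5 were higher in formative WT, with a median of 0.89 and a range from −0.25 to 2.14, and in DKO none was, with a range from −0.23 to 0.39. RNA folds stand in the authors' deposited table for 4 of these markers, and all 4 were over 2-fold higher in formative than in naive WT: Col1a1 at 1.30, Col1a2 at 2.58, Twist1 at 2.53 and Thy1 at 1.55. In DKO 3 of the 4 were, with Col1a1 at 1.90, Col1a2 at 3.20 and Twist1 at 2.77 in the authors' deposited table, and Thy1 at −0.68. The part of these markers in the member values was not tested. Fewer modified cells and less mark per cell cannot be told apart in bulk chromatin.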

How the data were processed

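H3K4me1 CUT&RUN was deposited as 1 table of 186826 regions on mm10. Per the submitters' processing notes, Trim Galore, Bowtie2, SEACR, DiffBind and deepTools were used. Their versions, the step of each and any use of the yeast spike-in DNA for scaling are what the sources used here do not give. Per the file headers, each deposited H3K4me1 level is on a log2 scale and stands for a whole group, both of its libraries pooled. The labels conflict on the H3K4me1 antibody, since the protocol's catalogue number is known for an antibody to H3K27ac. The mark is named as labelled. The FDR is an adjusted p-value deposited by the authors for formative against naive WT. Their deposited log2 folds of RNA and H3K27ac come from samples outside this series, and 14 further columns of levels were not used. IgG and MLL4 libraries were not analysed here.

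A level was found to be the log2 of 1 plus scaled reads, the reads being divided by the squared width (log2 scale factor 22.25 in both WT states, taken as the same elsewhere). Wide regions thus show smaller differences, and levels were compared only within a region. Reads were recovered from them, and 2 regions without levels were left out. Regions were counted at 2-fold, loci (mean over regions within 50 kb) at 1.5-fold, in Python 3.11.15 with pandas 2.3.3, and the counting was tested on simulated data. No test between lines was possible. Bases came from GRCm38, whose chromosome lengths held all region ends.

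The members, gene lists and rules were chosen with earlier results of these data known. Named were all 10 members, pathway genes past 1.5-fold in the WT transition, DKO against floxed or dCD against WT (at most the 3 highest and 3 lowest of each, ties included), the highest and lowest member regions of each comparison, and the 5 genes most like the members. The value of 1 pathway gene that this rule names is not reported here. Regions described by distance in a member's own paragraph, other than those, were chosen after their values were seen. Alternatives were the scaling, the read minimum, the FDR, the window and the locus summary.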

Additional observations from a re-analysis of the deposited data

How the results depend on the processing

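No paired analysis was possible because the columns pool the 2 libraries of a group, and for the same reason no library could be left out. None of the called locus differences reversed under any of the 8 alternatives. Of the 21 called loci, 21 kept 1.5-fold with regions within 1 kb left out, 20 with log2 ratios of reads, 20 with the median of the regions, 17 within 20 kb, 12 with summed reads, 11 with quantile scaling, 11 with at least 32 reads and 9 after centring. Newly at 1.5-fold were 6 loci with summed reads, 3 within 20 kb (Etv4 in 3 comparisons), 2 with the median, 1 with quantile scaling and 1 with regions within 1 kb left out. The 6 were Spry4 in the DKO and dCD transitions, at 0.73 and 0.63, Spred2, Etv4 and Etv5 in naive DKO, at −0.69, −0.65 and −0.61, and Etv4 in naive dCD, at −0.61. The WT gains of Spry4 and Spred1 were 0.75 and 0.83 after centring, and with at least 32 reads 0.58 and 0.61. After centring the calls lost were Fgf4 in naive DKO (−0.55), Fgfr1, Spry2 and Spry4 in formative DKO (−0.38, −0.53 and −0.46), Fgf4, Fgfr1 and Spry4 in naive dCD (−0.46, −0.56 and −0.43), Spry2, Fgfr1, Etv5 and Spred1 in formative dCD (−0.49, −0.43, −0.31 and −0.25), and Fgf4 in the dCD transition (−0.53). Quantile scaling lost the same calls except Fgf4 and Fgfr1 in naive dCD (−0.65 and −0.60), with Fgf4 in naive DKO at −0.49. Fgfr1 in formative DKO lost its call under 6 of the 8, from −0.47 to −0.32. Within 20 kb, Etv5 in formative dCD was at −0.09.

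Shares of member regions moved as follows. At an FDR of 0.01, 6.20% rose and 1.55% fell in WT (all regions 5.58% and 5.73%), and at 0.1, 22.5% and 3.88% (12.8% and 14.1%). With at least 32 reads 3.95% fell (13.6%). Higher in the floxed transition were 2.63% with at least 32 reads (all regions 4.68%) and 7.46% within 20 kb (6.05%). Higher in the DKO transition were 1.55% by read ratios, 0.0% with at least 32 reads and 0.0% within 20 kb (0.949%, 0.218% and 0.632%), and in dCD 3.88% after centring and 1.32% with at least 32 reads (1.8% and 0.352%). Lower in naive DKO were 9.30% after centring, 8.53% by quantile scaling and 10.4% within 20 kb, each below all regions (10.6%, 10.4% and 11.6%), and in formative DKO 13.2% by quantile scaling and 11.9% within 20 kb (11.5% and 10.5%). In naive dCD 8.53% were lower after centring and 11.6% by quantile scaling (5.63% and 7.52%), and in formative dCD 12.4%, 14.0% and, within 20 kb, 14.9% (9.69%, 10.2% and 11.6%). In the naive floxed line against WT these shares were 2.33% after centring, 3.88% by read ratios and 1.32% with at least 32 reads (2.87%, 4.0% and 1.5%). In its formative state they were 0.775% after centring and by quantile scaling, 1.55% by read ratios, 1.32% with at least 32 reads and 1.49% within 20 kb (2.54%, 2.59%, 3.51%, 1.35% and 2.39%). The causes were not tested, beyond the smaller number of regions under the read minimum and the window. Over all regions, the 2-fold shares counted here were each smaller with at least 32 reads, which limits what single regions with few reads show. Deep regions also held large differences, as at Spry2 in naive DKO, −2.17 with 171 reads in the floxed line and 33.7 in DKO.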

Other observations

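Beyond the 50 kb window the members had another 99 regions, as far as 416 kb from the start at Spred2. Of these, 14 rose and 4 fell at the authors' FDR of 0.05 in the WT transition, which is 14.1% and 4.04%, beside 9.82% and 10.5% of all regions. Their median log2 difference was 0.35. At least 2-fold higher were 15 in WT and 16 in the floxed line, which is 15.2% and 16.2%, beside 11.1% and 9.33% of all regions, against 0 in DKO (1.2% of all regions) and 0 in dCD (1.37%). In formative cells 22 were at least 2-fold lower in DKO than in the floxed line, which is 22.2%, beside 16.7% of all regions. In dCD against WT it was 28, or 28.3%, beside 20.1%.

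Dusp6 had 15 of these distant regions, with a mean difference of 0.77 in WT, 0.75 in the floxed line, 0.06 in DKO and −0.07 in dCD, so its distant regions lay higher in the WT transition than its near ones. Their formative means were −0.92 in DKO and −1.07 in dCD, where the near locus was at −0.12 and −0.41. Spred1 had 7, with −1.24 in formative DKO and −1.09 in formative dCD, again lower than near the gene. Spry4 had 8, at −0.30 and −0.42, where the near locus was at −0.67 and −1.05. Whether these regions act on the genes they are nearest to was not tested.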
